A study of Sus scrofa with 189 samples.

Results

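FBXO32, TRIM63, FOXO1 and FOXO3 were followed across the longissimus dorsi muscle of 189 pigs. They are 4 of the 12651 genes in the deposited table, they were picked by name, all 4 were found, and all 4 passed the filter on low values (a mean of at least 0.5 FPKM, fragments corrected for transcript length and for library size). The animals were an F1 cross of Duroc boars with Luchuan sows, slaughtered at an age of 210 ± 6 days from 1 farm and 1 abattoir on shared diets, and each library is 1 animal. The labels name no treatment, no fasting and no genotype. The only trait in the labels is the content of intramuscular fat (IMF), whose unit is not given and which was recorded for 164 animals (0.77 to 6.84, median 3.28). The titles of 21 libraries carry the unexplained mark "re-analyzed": 11 of these had low IMF (0.77 to 2.33) and 10 had high IMF (4.83 to 6.84). The other 168 libraries are called unmarked here, and 143 of them have IMF (1.19 to 5.61).

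FBXO32 (atrogin-1) and TRIM63 (MuRF1) encode muscle ubiquitin ligases, enzymes that tag proteins for destruction by the proteasome. Their transcripts are known for rising in muscle that wastes through fasting, disuse, steroid hormones of the glucocorticoid class or illness. FOXO1 and FOXO3 encode transcription factors that insulin and IGF1 keep out of the nucleus through the kinase AKT, and that activate both ligase genes when the hormones are low. PDK4, which encodes a kinase that shuts down pyruvate dehydrogenase and so spares glucose, is another known FOXO target and a fasting gene. Only messenger RNA was measured, not protein, phosphorylation or place in the cell.

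The summed FPKM of a library lay between 364109 and 465105, and 7803 to 10614 genes per library reached 1 FPKM. No 2 libraries held identical values (highest correlation 0.983). Unmarked library 39 was the least like the others, with a median correlation of 0.909. The 10 most abundant genes took 19.98% to 44.81% of a library, mitochondrial transcripts took 2.69% to 13.4%, and the median gene of a library ranged from 1.86 to 2.98 on the log2(FPKM + 1) scale. These differences move many genes at once, so counts of genes are given below with their values under other scalings. The tissue label matched its markers: 7 of 8 muscle fibre markers were measured, with a summed median of 61673 FPKM, against 155 FPKM for 8 fat cell markers.

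FBXO32 lies on chromosome 4 of Sscrofa11.1 (chr4:15895310-15930934, plus strand, ENSSSCG00000005981). The table lists 2 of its transcripts. The one of 8 exons and 6260 bases gave 88.2% of the gene's FPKM on average (71.9% to 96.6% per animal), and the one of 9 exons and 2064 bases gave the rest. TRIM63 lies at chr6:83488973-83508007 on the minus strand (ENSSSCG00000027684), with 1 listed transcript of 9 exons. FOXO1 lies at chr11:15320492-15410500 on the minus strand (ENSSSCG00000009370). Its transcript of 3 exons gave 71.1% of the gene's FPKM and the one of 2 exons 28.9%, with 7.10% to 60.4% for the latter per animal. FOXO3 lies at chr1:74628218-74760325 on the plus strand (ENSSSCG00000004387), with 1 listed transcript of 4 exons.

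Each ligase stood above each FOXO factor in every animal. FBXO32 averaged 54.8 ± 46.2 FPKM (SD, n = 189), with a lowest value of 9.90, a median of 40.3 and a highest of 286 FPKM. TRIM63 averaged 53.1 ± 43.3 FPKM, from 13.9 over a median of 40.9 to 314 FPKM. The ligases were level with each other: FBXO32 was the higher in 94 of 189 animals, and the median ratio of FBXO32 to TRIM63 within an animal was 0.992. FOXO1 averaged 7.11 ± 3.59 FPKM, from 2.37 over a median of 6.26 to 23.3 FPKM. FOXO3 averaged 7.52 ± 4.61 FPKM, from 0.987 over a median of 6.34 to 24.6 FPKM. These were level too, with FOXO1 the higher in 86 animals. Each ligase exceeded each FOXO factor in 189 of 189 animals, by a median factor between 5.90 (TRIM63 over FOXO3) and 6.83 (TRIM63 over FOXO1). The smallest factor was 1.31, for FBXO32 over FOXO3 (1.305) and over FOXO1 (1.314). FPKM are scaled to transcript length, so levels of different genes can be set side by side. PDK4 averaged 49.2 ± 66.6 FPKM and ranged from 0.216 over a median of 22.4 to 377 FPKM. The means of PDK4 and the ligases differed by less than the spread between animals.

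**Figure D1:**
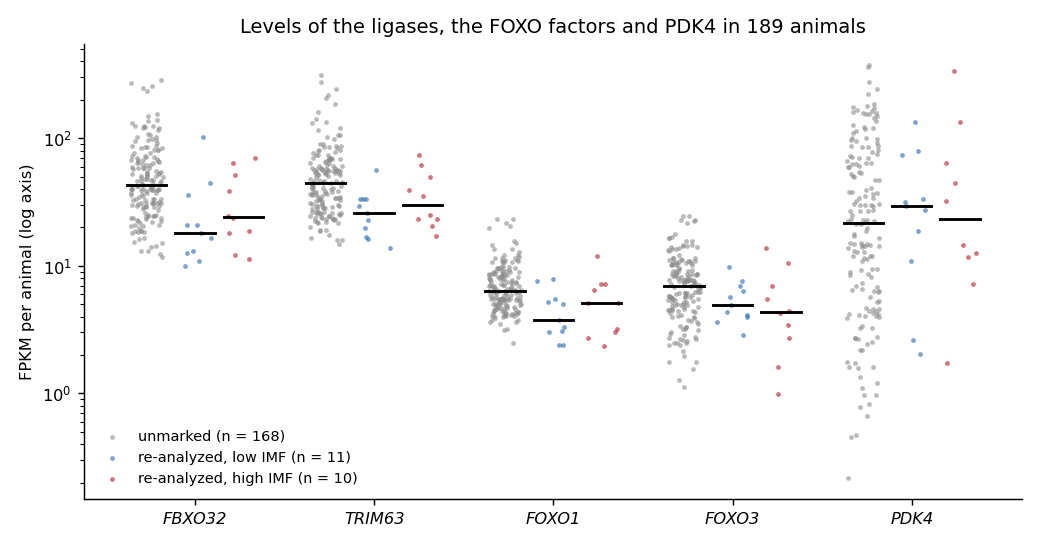
FPKM of FBXO32, TRIM63, FOXO1, FOXO3 and PDK4 on a log axis, 1 point per animal, in unmarked libraries (grey), re-analyzed libraries of low IMF (blue) and re-analyzed libraries of high IMF (red), with black bars at the group medians. The ligases (medians 40.3 and 40.9 FPKM over all animals) sit above the FOXO factors (6.26 and 6.34 FPKM), and PDK4 covers the widest range.

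The ligases were among the more variable genes of this muscle. The SD of log2(FPKM + 1) was 0.98 for FBXO32, larger than that of 98.3% of the 10717 genes tested, and 0.84 for TRIM63, larger than that of 96.3%. It was 0.75 for FOXO3 (93.8%) and 0.55 for FOXO1 (80.4%). The means of FBXO32 and TRIM63 were also higher than those of 93.8% and 93.6% of these genes, and log2(FPKM + 1) narrows the spread of low genes. These SDs include the difference between the sets of libraries. The upper quartile exceeded the lower by a factor of 2.74 for FBXO32, 2.19 for TRIM63, 2.20 for FOXO3 and 1.77 for FOXO1, against 10.5 for PDK4. A few animals stood out at the top. Library 103 had 286 FPKM of FBXO32, 218 of TRIM63, 20.5 of FOXO1, 16.7 of FOXO3 and 187 of PDK4. Library 42 had 271 FPKM of FBXO32, 205 of TRIM63, 14.7 of FOXO1 and 10.2 of FOXO3. Library 143 had 255 FPKM of FBXO32 and 159 of TRIM63, with FOXO1 at 11.0 (10.95) and FOXO3 at 22.6. Library 100 had 247 FPKM of FBXO32, 274 of TRIM63, 20.0 of FOXO1 and 22.7 of FOXO3, with PDK4 at 35.1. Library 123 had 237, 242 and 23.3 FPKM of FBXO32, TRIM63 and FOXO1, with FOXO3 at 5.73. Library 122, the highest of all in TRIM63 with 314 FPKM, had 125 FPKM of FBXO32, 21.7 of FOXO1 and only 2.94 of FOXO3. Library 3, the second highest in FOXO1 with 23.1 FPKM, had 86.1 FPKM of FBXO32 and 84.9 of TRIM63. Of the 10 animals highest in FBXO32, 6 were among the 10 highest in TRIM63, 5 in FOXO1, 4 in FOXO3 and 1 in PDK4.

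How closely the genes moved together was asked over the 189 animals, with the mean of each set of libraries (unmarked, re-analyzed) removed and p-values from permutations within sets, adjusted over 15 relations (10 between the genes, 5 with IMF). The smallest p that the 100000 permutations can give is 1e-05, which becomes 1.87e-05 when adjusted. FBXO32 and TRIM63 rose and fell together, with Pearson's r of 0.785 and Spearman's rho of 0.753 (permutation test, adjusted p = 1.87e-05 and 2.5e-05). FOXO1 followed both ligases. Its r was 0.699 with FBXO32 (rho 0.677) and 0.711 with TRIM63 (rho 0.652), with the same adjusted p-values. FOXO3 was less closely tied to the ligases, with r of 0.328 for FBXO32 (rho 0.283) and 0.343 for TRIM63 (rho 0.343). Each of these also had an adjusted p of 1.87e-05 for r. The FOXO factors had an r of 0.285 with each other (rho 0.248, permutation test, adjusted p = 1.83e-04).

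When the 2 animals most distant from the median were left out, r was 0.766 for FBXO32 with TRIM63, 0.678 for FBXO32 with FOXO1 and 0.680 for TRIM63 with FOXO1. Within the unmarked libraries alone these values were 0.805, 0.708 and 0.723, and within the 21 re-analyzed libraries 0.590, 0.627 and 0.621. The relations of FOXO3 with the other members were 0.0335 (FBXO32), 0.154 (TRIM63) and 0.226 (FOXO1) within the 21 re-analyzed libraries and did not pass there.

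**Figure D2:**
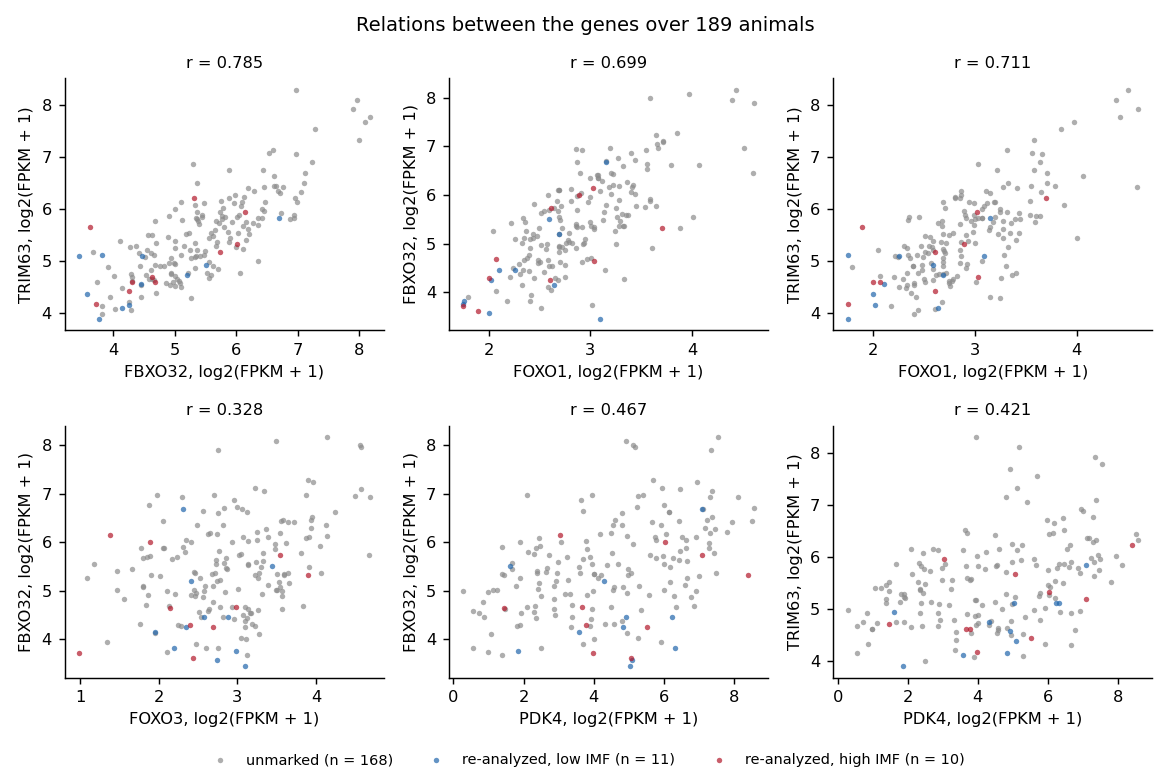
Levels of pairs of genes on the log2(FPKM + 1) scale, 1 point per animal (189), coloured by set of libraries, with Pearson's r above each panel. The ligases and FOXO1 form narrow clouds (r of 0.785, 0.699 and 0.711), while FBXO32 against FOXO3 (0.328) and the ligases against PDK4 (0.467 and 0.421) are wider.

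The place of these values among all genes was then described. Of the 10716 other genes tested, TRIM63 had the highest r with FBXO32, and FBXO32 had the highest r with TRIM63. FOXO1 came as number 7 for FBXO32 and number 9 for TRIM63. FOXO3 came as number 980 and 839, and PDK4 as number 241 and 479. The median gene had an r of 0.0911 with FBXO32, and the middle 90% of genes lay between -0.190 and 0.394. For FOXO3 the ligases stood near the top of a narrower range: TRIM63 was number 21 and FBXO32 number 36, and the middle 90% of genes lay between -0.203 and 0.214. All these genes come from the same libraries and share their depth and scaling, so the ranks describe the data and carry no p.

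**Figure D3:**
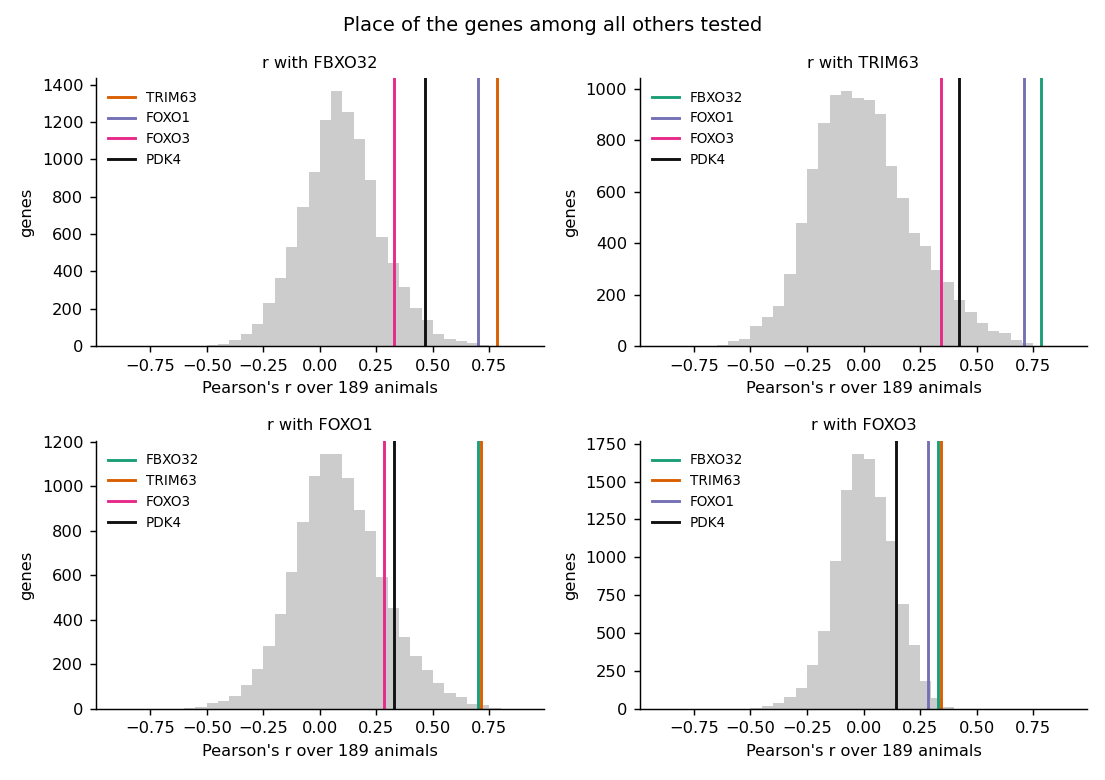
Number of genes by Pearson's r with FBXO32, TRIM63, FOXO1 and FOXO3 over 189 animals (grey bars, width 0.05), with coloured lines at the r of the other members and PDK4. TRIM63 and FBXO32 lie at the right edge of each other's distribution (0.785), and FOXO1 close behind, while FOXO3 lies at 0.328 and 0.343.

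The genes most like each member, other members and PDK4 aside, were these. For FBXO32 they included RSC1A1, a regulator of glucose transporters (r 0.728), ZFAND5, a zinc finger protein that stimulates the proteasome (0.727), the sestrin SESN1, a stress sensor upstream of mTORC1 (0.717), and TBX15, a transcription factor of fast fibres (0.705). For TRIM63 they were the amino acid transporter SLC43A2 (0.751), the tRNA methyltransferase TRMO (0.748), TMEM140 (0.739), PLEKHF1 (0.735) and the phosphatidate phosphatase LPIN1 (0.735). For FOXO1 they were the forkhead factor FOXK1 (0.763), TBX15 (0.752), the AP-1 subunit FOSL2 (0.738), the kinase SIK3 (0.729) and ERN1, the stress sensor of the endoplasmic reticulum (0.726). For FOXO3 the values were lower: SIMC1 (0.408), TBX15 (0.397), the mitophagy receptor BCL2L13 (0.386), the transcription factor ZBTB16 (0.382) and the amino acid transporter SLC7A6 (0.379). TBX15 was among the 5 highest for FBXO32, FOXO1 and FOXO3.

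PDK4 was the second measure the members were set against. Slopes were fitted with limma on log2(FPKM + 1) with the set of libraries as a covariate. They are log2 units of the gene per log2 unit of PDK4. The threshold for a call was 0.05 after Benjamini-Hochberg adjustment over all genes tested. FBXO32 rose with PDK4 by 0.22 (SE 0.030, n = 189, limma adjusted p = 1.07e-09), TRIM63 by 0.17 (SE 0.027, adjusted p = 5.10e-08) and FOXO1 by 0.086 (SE 0.018, adjusted p = 2.85e-05). FOXO3 had a slope of 0.052 (SE 0.026, adjusted p = 0.0922) and was not called. Rising with PDK4 was common: 49.5% of the 10716 genes were called, 43.3% rising and 6.23% falling. Of those called, 87.4% rose, against 47.8% after quantile normalization and 39.9% after a shift of each library to the same median. Under these scalings the slope of FBXO32 was 0.20 and 0.19, that of TRIM63 0.16 and 0.15, and that of FOXO1 0.059 and 0.058, all still called. Only 0.121% of genes had a larger slope than FBXO32 and 0.439% a larger one than TRIM63, against 8.48% for FOXO1 and 24.4% for FOXO3. A slope also grows with a gene's own spread, in which the members differ, and so do differences between slopes. By r with PDK4, FBXO32 was number 88 of the 10716 genes and TRIM63 number 258. FOXO1 was number 1306 and FOXO3 number 5122.

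The members differed in how steeply they followed PDK4, in a comparison added after the data were seen. The slope of FBXO32 exceeded that of TRIM63 by 0.048 (SE 0.0211, permutation test, p = 0.0287 adjusted over 6 pairs), that of FOXO1 by 0.13 (adjusted p = 3e-05) and that of FOXO3 by 0.17 (adjusted p = 3e-05). The slope of TRIM63 exceeded that of FOXO1 by 0.085 (adjusted p = 8e-05) and that of FOXO3 by 0.12 (adjusted p = 2.55e-04). The slopes of FOXO1 and FOXO3 differed by 0.034 (SE 0.0281, adjusted p = 0.231). As correlations, r with PDK4 was 0.467 for FBXO32 (rho 0.467), 0.421 for TRIM63 (rho 0.434) and 0.328 for FOXO1 (rho 0.298), each with an adjusted p of 1.87e-05 (permutation test). For FOXO3 it was 0.141 (rho 0.149, adjusted p = 0.0797), and without library 39 it was 0.160 (adjusted p = 0.0437). Within the 21 re-analyzed libraries r with PDK4 was 0.210 for FBXO32, 0.519 for TRIM63 and 0.264 for FOXO1, of which only that of TRIM63 passed. The rho of TRIM63 with PDK4 there, 0.499, did not pass (permutation test, adjusted p = 0.0554). The difference of a PDK4 slope between the sets was called for 0 of the 10716 genes (limma, 254 with an unadjusted p under 0.05), and for FBXO32 it was -0.12 (SE 0.105). The slope of FOXO1 was 0.064 (adjusted p = 0.0756) with the shared 9-digit part of the titles as a factor, and no longer called.

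The ties among the members were then measured at the same PDK4. With FBXO32 as the predictor, TRIM63 rose by 0.68 (SE 0.039, limma adjusted p = 4.70e-37), the smallest p of all genes. FOXO1 rose by 0.39 (SE 0.029, adjusted p = 5.42e-26) and FOXO3 by 0.26 (SE 0.054, adjusted p = 3.76e-05), where 37.5% of genes were called, 31.4% rising and 6.08% falling. With PDK4 as a further covariate these slopes were 0.65, 0.39 and 0.26, all called. PDK4 itself rose by 1.00 log2 unit per log2 unit of FBXO32 (SE 0.137, adjusted p = 4.08e-10).

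The genes around the members were read from fixed lists, first against FBXO32. Of the genes called on this slope, 83.8% rose, against 47.9% after quantile normalization and 43.9% after the median shift. Glucocorticoid response genes rose most steeply: 8 of 12 rose and 1 fell, with a median slope of 0.39 against 0.036 for all genes, and the same counts under both scalings. GLUL, which makes glutamine, rose by 0.59 (SE 0.055), DDIT4, an inhibitor of mTORC1, by 0.56 (SE 0.051), the transcription factor KLF9 by 0.55 (SE 0.047) and ZBTB16 by 0.50 (SE 0.054). Their adjusted p-values lay between 3.57e-21 and 3.71e-15. The gene that fell was the kinase SGK1, named after its value was seen (-0.15). On the slopes of the other members, the same list had 8 rising and 1 falling for TRIM63 (median 0.48), 10 and 1 for FOXO1 (median 0.86), and 5 and 0 for FOXO3 (median 0.16). The share of all genes rising was 21.5%, 31.7% and 6.35% on these slopes, and 22.5%, 8.77% and 5.2% fell.

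Known FOXO targets rose in 11 of 20 cases with FBXO32, and 1 fell. The counts were 11 and 1 after quantile normalization and 9 and 2 after the median shift. Over all genes 31.4% rose and 6.08% fell with FBXO32. These shares were 14.7% and 16.0% after quantile normalization and 12.6% and 16.1% after the median shift. SESN1 rose by 0.47 (SE 0.033, limma adjusted p = 7.43e-28), the autophagy genes GABARAPL1 by 0.36 (SE 0.033) and ULK1 by 0.29 (SE 0.037), and the cell cycle inhibitor CDKN1B by 0.23 (SE 0.029). With FOXO1 itself, 9 of the 20 targets rose and 3 fell, and 6 rose and 6 fell after the median shift. Of all genes 31.7% rose and 8.77% fell with FOXO1, and 19.6% and 22.9% after the median shift. With TRIM63, 9 rose and 5 fell (8 and 5 after the median shift). There 21.5% of all genes rose and 22.5% fell (29.0% and 26.5% after the median shift). With FOXO3, 7 rose and 0 fell (7 and 2 after quantile normalization, 8 and 2 after the median shift). Of all genes 6.35% rose and 5.2% fell with FOXO3. These shares were 14.2% and 13.3% after quantile normalization and 15.9% and 13.3% after the median shift.

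Other muscle ubiquitin ligases had 9 of 15 rising and 1 falling with FBXO32 (7 and 1 under both scalings). The shares of all genes were 31.4% rising and 6.08% falling. They were 14.7% and 16.0% after quantile normalization and 12.6% and 16.1% after the median shift. FBXO40, an F-box protein that targets IRS1, rose by 0.49 (SE 0.044, adjusted p = 1.32e-19), ASB2 by 0.24 (SE 0.035), TRAF6 by 0.17 (SE 0.022) and FBXO21 by 0.11 (SE 0.018). In the ubiquitin conjugation and SCF genes, which supply the ligases with ubiquitin and carry FBXO32, 8 of 15 rose and 1 fell, but 2 rose and 1 fell after the median shift, so most of these depended on the scaling. The conjugating enzyme UBE2G1 (0.11, SE 0.023) was called under every alternative. Among known protein substrates of the ligases, 0 of 11 rose and 4 fell: the myogenic factor MYOD1 (-0.22, SE 0.044), CKM, the muscle creatine kinase (-0.096, SE 0.026), the translation factor EIF3F (-0.085, SE 0.025) and the light chain MYL1 (-0.073, SE 0.028). With shares of mitochondrial and of the most abundant transcripts as covariates, CKM and MYL1 were not called. After quantile normalization 1 substrate rose and 2 fell, and CKM was not called under either scaling. These are transcripts, and the ligases act on proteins.

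**Figure D4:**
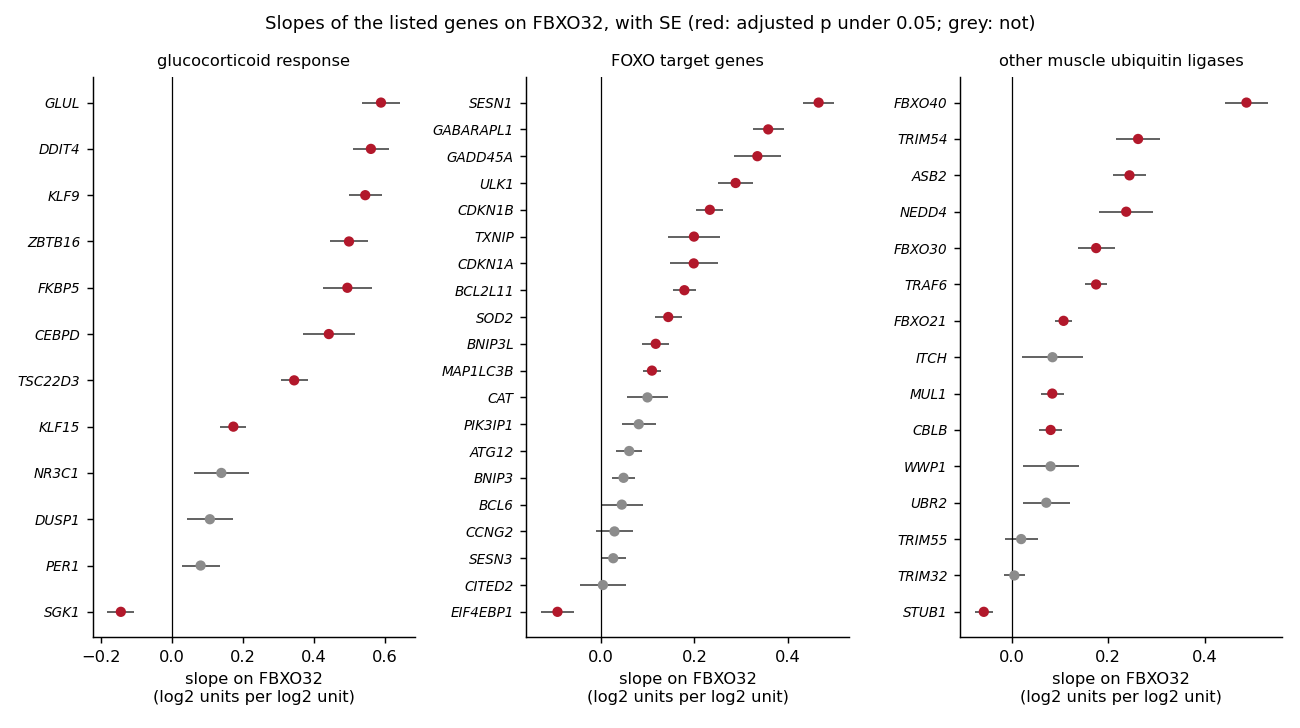
Slope of each tested gene of 3 lists on FBXO32 (log2 units per log2 unit, 189 animals) with its SE as bars, red where the limma adjusted p was under 0.05 and grey where it was not. GLUL, DDIT4 and KLF9 lead the glucocorticoid response genes (0.59, 0.56 and 0.55), SESN1 the FOXO targets (0.47) and FBXO40 the other ligases (0.49), and SGK1, EIF4EBP1 and STUB1 are the genes that fell.

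Upstream of the FOXO factors, 6 of 12 insulin, IGF1 and AKT signalling genes rose with FBXO32 and 0 fell, and 3 rose and 3 fell after the median shift. Over all genes 31.4% rose and 6.08% fell, with 14.7% and 16.0% after quantile normalization and 12.6% and 16.1% after the median shift. IRS2, an adaptor of the insulin receptor, rose by 0.37 (SE 0.048), the receptors IGF1R by 0.25 (SE 0.029) and INSR by 0.16 (SE 0.033). Inflammatory signalling genes had 8 of 11 rising and 0 falling (6 after quantile normalization, 8 after the median shift), led by IL6R, the interleukin-6 receptor (0.39, SE 0.032, adjusted p = 2.22e-22). IKBKB rose by 0.14 (SE 0.023), IL1R1 by 0.16 (SE 0.027) and STAT3 by 0.15 (SE 0.025). Of 13 FOXO family and modifier genes, 5 rose and 1 fell, but 3 rose and 3 fell under both scalings. FOXK1 (0.21, SE 0.018) and the deubiquitinase USP7 (0.19, SE 0.030) rose under each of these, and the arginine methyltransferase PRMT1 fell (-0.080, SE 0.022). For myostatin and activin signalling, 3 of 12 rose and 0 fell, a share of rising genes below that of all genes, and 1 rose and 4 fell under both scalings. SMAD3 rose by 0.14 (SE 0.023). MSTN, the muscle growth inhibitor myostatin, had a slope of -0.14 (SE 0.065, adjusted p = 0.0781). It was not called here but was called as falling in 5 of 12 alternatives, both scalings among them, with slopes down to -0.26 and adjusted p-values from 1.23e-04 to 0.415.

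Genes of fatty acid oxidation and the PDK family had 7 of 15 rising with FBXO32 and 0 falling (5 and 0 after quantile normalization, 6 and 1 after the median shift). Among all genes 31.4% rose and 6.08% fell on this slope (14.7% and 16.0% after quantile normalization, 12.6% and 16.1% after the median shift). UCP3, the muscle uncoupling protein, rose by 0.74 (SE 0.062, adjusted p = 3.11e-22), the coactivator PPARGC1A by 0.33 (SE 0.031), the fatty acid receptor PPARA by 0.25 (SE 0.033) and the lipid droplet protein PLIN2 by 0.30 (SE 0.048). PLIN2 was not called once PDK4 was a covariate.

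The same lists were then read against PDK4, where 43.3% of all genes rose (19.4% after quantile normalization and 15.7% after the median shift) and 6.23% fell (21.2% and 23.6%). Glucocorticoid response genes again had the highest median slope of the pathway lists, 0.13 (0.135) against 0.022 for all genes. Of these genes 9 of 12 rose and 1 fell (7 and 1 under both scalings), with CEBPD at 0.28 (SE 0.031) and KLF9 at 0.21 (SE 0.024). Of the FOXO targets, 15 of 20 rose and 0 fell (14 and 0 after quantile normalization, 13 and 1 after the median shift), with a median slope of 0.071. TXNIP, which restrains glucose uptake, rose by 0.26 (SE 0.019, adjusted p = 1.85e-26), the catalase gene CAT by 0.16 (SE 0.018), CDKN1B by 0.10 (SE 0.014) and the mitophagy receptor BNIP3L by 0.091 (SE 0.012). ULK1, which rose with FBXO32, had a slope of -0.0096 on PDK4 (SE 0.0199, adjusted p = 0.713). CAT had a slope of 0.099 on FBXO32 (SE 0.044, adjusted p = 0.0645). Of the genes of fatty acid oxidation and the PDK family, 10 of 15 rose and 0 fell (9 and 0 under both scalings). PLIN2 had the smallest p of all genes (0.27, SE 0.015, adjusted p = 1.25e-36), and ANGPTL4, an inhibitor of lipoprotein lipase, rose by 0.33 (SE 0.020), UCP3 by 0.29 (SE 0.032) and HADHA of the beta-oxidation spiral by 0.079 (SE 0.011). Insulin signalling genes had 4 of 12 rising and 0 falling, a smaller share than the 43.3% of all genes. The 4 included IRS2 (0.16, SE 0.023), IGF1R (0.097, SE 0.015) and the kinase PIK3CA (0.13, SE 0.024). After quantile normalization 4 rose and 1 fell, and after the median shift 4 and 2. Rising was then a larger share than the 19.4% and 15.7% of all genes.

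For the degradation genes the counts on PDK4 moved with the scaling. Of the other muscle ligases 10 of 15 rose and 0 fell, but 6 rose and 2 fell after quantile normalization and 4 and 3 after the median shift. NEDD4 rose by 0.16 (SE 0.025) and was called under every alternative. FBXO30 rose by 0.094 (SE 0.017), FBXO21 by 0.048 (SE 0.0086) and TRAF6 by 0.052 (SE 0.011). TRAF6 was not called under either scaling, and FBXO21 was not called after the median shift. Ubiquitin conjugation genes had 9 of 15 rising and 1 falling (4 and 2 after the median shift), the FOXO family 6 and 1 of 13 (2 and 3), myostatin signalling 5 and 0 of 12 (1 and 4) and inflammatory genes 7 and 0 of 11 (3 and 0). The 5 of 12 are a share close to the 43.3% of all genes that rose. Substrates of the ligases had 1 rising and 4 falling of 11, with MYOD1 at -0.12 (SE 0.020), CKM at -0.059 (SE 0.012) and MYLPF at -0.068 (SE 0.015). MYLPF was not called after quantile normalization. With the shared 9-digit part of the titles as a factor, neither CKM nor MYLPF was called. With the shares of mitochondrial and of the 10 most abundant transcripts as covariates, the slopes of CKM and MYLPF were 2.47e-05 and 0.0015, and neither was called.

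Whether the atrophy genes followed intramuscular fat was asked over the 164 animals with a value. None of the members was called. The slope per IMF unit was 0.063 for FBXO32 (SE 0.063, 95% interval -0.059 to 0.19), 0.037 for TRIM63 (SE 0.055, interval -0.072 to 0.14), -6.2e-04 for FOXO1 (SE 0.036, interval -0.072 to 0.070) and -0.041 for FOXO3 (SE 0.051, interval -0.14 to 0.060), with limma adjusted p-values between 0.961 and 0.998. The sign turned under some alternatives: the slope of TRIM63 was -0.036 in the unmarked libraries alone, and that of FBXO32 was -0.0039 with the title code as a factor. PDK4 had a slope of 0.18 (SE 0.140, adjusted p = 0.961). Among all 10717 genes, 0.084% were called, all 9 rising. As correlations with IMF, r was 0.0786 for FBXO32, 0.0517 for TRIM63, -0.00134 for FOXO1, -0.0618 for FOXO3 and 0.0992 for PDK4 (permutation test, adjusted p from 0.258 to 0.987). FBXO32 averaged 49.9 ± 46.1 FPKM in the 41 animals lowest in IMF and 53.2 ± 36.7 FPKM in the 41 highest, and TRIM63 50.4 ± 47.3 and 49.9 ± 32.2 FPKM. Of every pathway list above, 0 genes were called on the IMF slope. Of the 8 fat cell markers 4 rose: ADIPOQ (0.29), PLIN1 (0.26), CEBPA (0.21) and LEP (0.15).

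**Figure D5:**
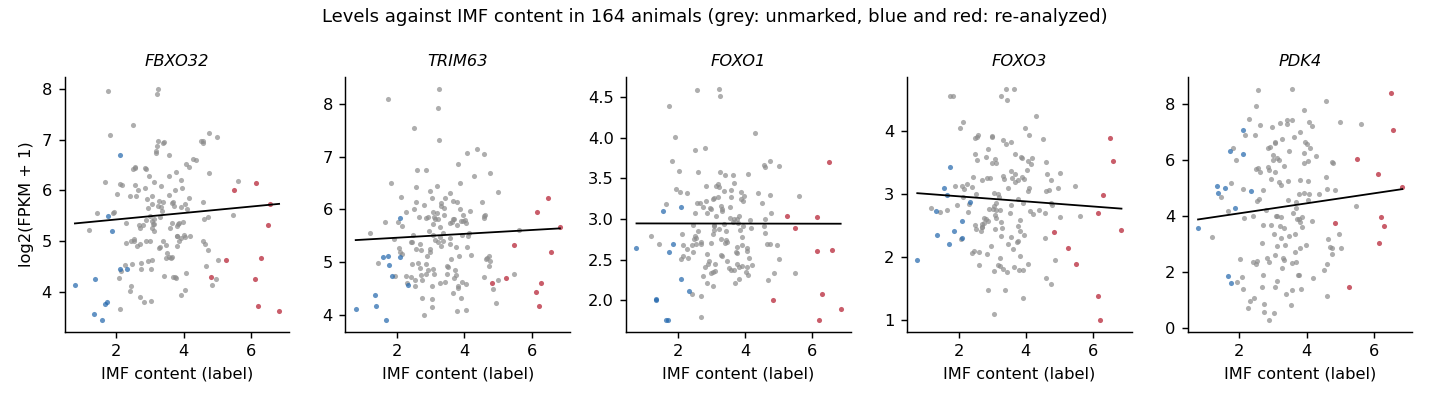
Levels of FBXO32, TRIM63, FOXO1, FOXO3 and PDK4 (log2(FPKM + 1)) against the IMF content of the labels in 164 animals, with the fitted slope drawn through the mean of the unmarked libraries. The slopes of 0.063, 0.037, -6.2e-04, -0.041 and 0.18 per IMF unit are all within 2 SE of 0.

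The extremes of IMF were also compared within the re-analyzed libraries. FBXO32 lay between 9.90 and 102 FPKM (median 18.1) in the 11 animals of low IMF and between 11.3 and 69.5 FPKM (median 24.2) in the 10 of high IMF. TRIM63 lay between 13.9 and 56.1 FPKM (median 25.7) and between 17.0 and 73.7 FPKM (median 30.2). The groups overlapped over most of their range in each gene. High against low IMF differed by 0.36 for FBXO32 (SE 0.375), 0.37 for TRIM63 (SE 0.254), 0.19 for FOXO1 (SE 0.228), -0.20 for FOXO3 (SE 0.280) and 0.18 for PDK4 (SE 0.741) on the log2 scale, with limma adjusted p-values of at least 0.986. Of all genes 0.084% were called here.

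The mark in the titles, on the other hand, went with lower levels. At the same IMF, FBXO32 was lower in the 21 re-analyzed libraries than in the 143 unmarked ones by -0.89 on the log2 scale (SE 0.212, limma adjusted p = 4.03e-04), with means of 30.4 ± 24.0 and 55.2 ± 42.1 FPKM. TRIM63 was lower by -0.63 (SE 0.187, adjusted p = 0.00419), with 31.9 ± 16.1 and 54.1 ± 43.8 FPKM, and FOXO1 by -0.48 (SE 0.123, adjusted p = 8.68e-04), with 4.92 ± 2.46 and 7.25 ± 3.57 FPKM. FOXO3 differed by -0.36 (SE 0.173, adjusted p = 0.0855) and PDK4 by 0.29 (SE 0.472, adjusted p = 0.655), neither of them called. The ranges of the sets overlapped in each gene. Differences between the sets were widespread, with 18.3% of all genes higher and 22.7% lower. Other cell types moved with the mark as well. Called lower were 6 of 6 fibroblast markers, 3 of 5 endothelial, 4 of 4 macrophage and 5 of 8 fat cell markers. The list of macrophage and lymphocyte markers holds 6 genes. Only CD68, CSF1R, C1QA and C1QB of these passed the filter, so no lymphocyte marker was tested. The summed fibroblast markers had a median of 513 FPKM (182 to 1124) in the re-analyzed and 721 FPKM (156 to 2205) in the unmarked libraries, the endothelial markers 40.5 (27.6 to 65.9) and 57.5 FPKM (29.5 to 102), the macrophage and lymphocyte markers 15.6 (5.27 to 24.8) and 22.5 FPKM (8.77 to 69.5), the fat cell markers 110 (44.4 to 321) and 160 FPKM (37.8 to 3265), and the muscle fibre markers 53563 (25618 to 73981) and 62648 FPKM (28613 to 103083). Their part in the result was not tested. In whole muscle, fewer cells of a type and less RNA per cell cannot be told apart.

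Titles hold a code of unexplained meaning, and 146 animals fall into 48 sets that agree in its first 9 digits. The intraclass correlation, the part of the variance that lies between codes on a scale up to 1, was 0.0505 for FBXO32, 0.0964 for TRIM63, 0.0753 for FOXO1, 0.102 for FOXO3 and 0.149 for PDK4, against a median of 0.0479 over all genes. None was called (moderated F test of limma, adjusted p from 0.210 to 0.507), where 1.82% of all genes were.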

How the data were processed

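Messenger RNA of 189 muscle samples was sequenced as 150-bp paired-end reads, per the labels' protocols. Per the submitters' processing notes, the tools were HISAT2 2.0.5 and StringTie 1.3.3 and the build was Sscrofa11.1. Which annotation release they used is not given in the sources used here. Authors' values were deposited as 1 table of 18114 transcripts, whose header names no unit. The authors' deposited values were taken as FPKM from the column layout of StringTie and from library sums that vary little. The table gives no counts, so depth and counting error are unknown, and errors are the spread between animals. No transcript is at 0 in more than 9.52% of samples.

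FPKM were summed per gene and tested as log2(FPKM + 1), which understates changes of low genes, in the 10717 genes whose mean reached 0.5 FPKM. Slopes and differences were fitted with limma 3.58.1 in R 4.3.3 (lmFit, eBayes with a mean trend, 2-sided, Benjamini-Hochberg over all genes tested), with the re-analyzed mark as a covariate. The predictor gene was left out of its own fit. Correlations used 2-sided permutations (100000) within sets of libraries. So did the differences between the members' PDK4 slopes, which were tested after the data were seen. The PDK4 fit was tested on simulated data of 10716 genes. There it recovered 62% of slopes of 0.05 and 100% of slopes of 0.15, with 3.57% false calls. Slopes were planted only in genes well above the floor and less variable than FBXO32, TRIM63 and FOXO3 (SD 0.979, 0.839 and 0.746). These shares therefore do not cover genes as variable as those members. Whether these shares hold for the measured genes, many of which move at once with differences between libraries, was not tested. Alternatives were another pseudocount (0.1), other filters, quantile normalization, a median shift, leaving out library 39, the unmarked libraries alone, parts of the title as factors and, chosen after seeing the data, PDK4 or shares of abundant transcripts as covariates. The labels give 112 or 158 sows and 8 boars for the cross and do not say which animals share a parent, so p-values treat animals as independent.

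The members and lists were chosen with earlier results of these data known. Genes were named by a rule: the members and PDK4, for each member the 5 genes with the highest r, and for each list the 4 genes with the smallest p on the PDK4 and on the FBXO32 slope and any gene called on the IMF slope. Some genes that the rule names are not reported here. Of 12651 genes, 10949 carried a symbol in the table and 11695 after matching to a reference table of the same build. Sequences of promoters and proteins were not used here.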

Additional observations from a re-analysis of the deposited data

Results flagged for a closer look

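Among 10 high-IMF animals of the re-analyzed set, library 148 stood apart from the other 9 in FOXO1, with 12.0 FPKM, and in PDK4, with 337.9 FPKM. Its gap to the next animal was 0.501 of the group's range for FOXO1 and 0.605 for PDK4. The limit used for this gap holds for normally distributed values, and both ends of each gene's range were looked at. FPKM were skewed here (PDK4 in this group: mean 66.15, median 23.39 FPKM), so how often chance flags a group is not known. Library 148 also had the highest FOXO3 of its group (13.9 FPKM) and the highest TRIM63 (73.7 FPKM), with FBXO32 at 38.8 FPKM.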

How the results depend on the processing

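The 59 results for single members were recomputed under 626 alternatives in all. Of these, 598 kept the direction and the side of the threshold, 12 kept the direction but were no longer called, 1 was newly called and 15 changed sign, none of which was called before or after. The slope per IMF unit of FOXO1 became 8.1e-04 with a pseudocount of 0.1, 0.042 with the title code and 0.0081 without the 2 lowest and 2 highest values of IMF, that of TRIM63 -0.036 in the unmarked libraries and that of FBXO32 -0.0039 with the title code. The r with IMF of FOXO1 became 0.00155 with the pseudocount, 0.0144 without the 2 most distant animals and 0.0711 with code means removed, that of TRIM63 -0.0375 in the unmarked libraries and that of FBXO32 -0.0133 with code means removed. PDK4 became -0.33 for the mark with shares of abundant transcripts as covariates, and for high against low IMF it lay between -0.22 and 0.55 with each re-analyzed library left out in turn, below 0 without library 20 (-0.10), 118 (-0.13), 141 (-0.078) or 148 (-0.22). With the title code as a factor (146 animals), the PDK4 slope of FOXO1 was 0.064 (0.06378), and the slopes of FOXO3 and PDK4 on FOXO1 (0.256 and 0.873) and of FBXO32, TRIM63 and FOXO1 on FOXO3 (0.364, 0.311 and 0.129) were not called. With code means removed, r of FOXO1 with FOXO3 was 0.219. In the 21 re-analyzed libraries alone, r was 0.0335 for FBXO32 with FOXO3, 0.210 for FBXO32 with PDK4, 0.154 for TRIM63 with FOXO3, 0.226 for FOXO1 with FOXO3 and 0.264 for FOXO1 with PDK4, all no longer called with fewer animals. Without library 39, r of FOXO3 with PDK4 was 0.160 and newly called, and the cause was not tested.

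Counts of called genes moved more. On the IMF slope, 9 genes became 19 with a pseudocount of 0.1, 5 with a mean of at least 5 FPKM, 28 without library 39, and 0 both in the unmarked libraries alone (270 with an unadjusted p under 0.05) and with the title code. With the stricter filter, which leaves 4803 or 4804 genes, the counts were 2324 on PDK4, 1816 on FBXO32, 2327 on TRIM63, 1883 on FOXO1 and 724 on FOXO3, and 2253 for the mark. With the title code they were 1948 on PDK4, 1303 on FBXO32, 2014 on FOXO1 and 150 on FOXO3. With shares of abundant transcripts as covariates they were 1901 on PDK4 and 1858 on FOXO3, and with PDK4 as a covariate 2539 on FBXO32. The FOXO3 count (1238) was 2949 after quantile normalization, 3126 after the median shift and 2096 without the mark. The title code called 109 and 110 genes under these scalings against 195. High against low IMF in re-analyzed libraries called 9 genes, 5 with a pseudocount of 0.1, 5 with the stricter filter, and between 0 and 17 without replicates left out one at a time (0 without library 14 or 189, 17 without library 104). The causes of these moves were not tested except where fewer genes or animals entered.

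All values are FPKM without counts, so small values cannot be judged by their depth. Sets that hold few animals (21 re-analyzed) limit what a missed threshold shows.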

Other observations

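At the other end of the range, and named after their values were seen, stood genes that fell where the members rose. DBP, a transcription factor of the circadian clock's output, had the lowest r with TRIM63 (-0.714) and FOXO1 (-0.621) among genes with a symbol, and was among the 3 lowest of these for FBXO32 (-0.512). MAMSTR, a coactivator of MEF2 in muscle, had the lowest r with FBXO32 among genes with a symbol (-0.533) and a low one with FOXO1 (-0.575). For FOXO3 the lowest were the ribosomal protein gene RPL13 (-0.493), the ubiquitin conjugating enzyme UBE2S (-0.485) and G0S2, an inhibitor of fat breakdown (-0.480). These values are over 189 animals and carry no test.

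Fibre markers were read on the slopes of the members as well. With FOXO1, 5 of 7 muscle fibre markers and 5 of 8 slow fibre markers fell and 0 rose, but after the median shift 0 and 1 fell. Of all genes 8.77% fell on this slope and 31.7% rose. Fat cell markers had 6 of 8 rising with FOXO1, but 1 rising after quantile normalization, and 2 rising and 1 falling after the median shift. With TRIM63, 4 of 4 tested macrophage markers rose, also under both scalings, and no lymphocyte marker was tested. Of the fat cell markers 4 of 8 rose (3 under both scalings), where 21.5% of all genes rose. Their part in the relations of the members was not tested.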
